A study of Caenorhabditis elegans with 12 samples.

Results

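The heterochronic genes are the regulators that fix which larval stage a *C. elegans* cell behaves as. Described here are 8 of them, *lin-14* (T25C12.1), *hbl-1* (F13D11.2), *lin-41* (C12C8.3), *daf-12* (F11A1.3), *lin-28* (F02E9.2), *lin-46* (R186.4), *lin-29* (W03C9.4) and *lin-42* (F47F6.1). They were taken from the count table by name, dropping the isoform letter, which gave 18 transcript rows of 23953 in the table and 8 genes of 20188. All 18 rows had enough counts to be tested. RNA came from pooled whole larvae of 4 strains, with 3 libraries each and 12 in all, collected at the L3 stage 31 hr after hatching from bleach-synchronised cultures on OP50 bacteria. The *lin-22(icb38)* strain MBA81 carries the seam cell marker *wIs51* and a deletion 2371 bp upstream of the *lin-22* start codon, which also cuts into the neighbouring gene *vrp-1* and holds inserted sequence of *mca-3*. The *lin-22(ot269)* strain OH4271 carries a single C-to-T change further upstream of that codon, and the *lin-22(ot267)* strain OH4265 a stop codon in the coding sequence, both with the transgene *vtIs1* in place of *wIs51*. JR667, the strain wild type for *lin-22*, carries *wIs51* with a rescuing copy of *unc-119* over an *unc-119* mutation. The contrasts of *lin-22(ot269)* and *lin-22(ot267)* with JR667, and those of *lin-22(icb38)* with *lin-22(ot269)* and *lin-22(ot267)*, therefore differ by transgene as well as by allele, and in them the effects of transgene and allele cannot be told apart. Each mutant strain was represented by a single line and is named by its allele from here on.

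In the heterochronic pathway, early-acting proteins hold cells in young fates until small regulatory RNAs switch them off. LIN-14 and LIN-28 act in the first larval stages, HBL-1 and LIN-41 hold back later ones, and the microRNAs lin-4 and let-7 with its relatives repress them through their messenger RNAs. DAF-12, a nuclear hormone receptor, couples these microRNAs to a steroid signal, and LIN-29 is the transcription factor that starts the adult programme in the epidermis. In the lateral epidermis the pathway sets when the stem-like seam cells divide symmetrically, divide asymmetrically and stop. *lin-22* encodes a basic helix-loop-helix factor of the Hes family that acts in those seam cells.

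Libraries held between 56479069 and 78920246 counts (median 68049421), and the 18 rows had between 326 and 13505 raw counts in a library. Counts were divided by a size factor per library and are called normalised counts. All rows were compared in 1 fit of all libraries by the quasi-likelihood method of edgeR, adjusted over the 19696 rows tested and held to an adjusted p of 0.1, the false discovery rate of the study. Log2 fold changes follow this fit, with approximate standard errors (SE). The common biological coefficient of variation was 0.165. An exact two-sided permutation test of 3 libraries against 3 cannot go below 0.1. The edgeR p-values can, because they rest on a model of the counts fitted to all libraries, with the spread partly shared over rows. No label says whether the libraries of a strain came from separate cultures, and the p-values measure the spread between these libraries. JR667 replicate 1 and *ot267* replicate 3 stood furthest from the other libraries of their strains, by root mean square log2 differences of 0.402 and 0.36 over 15478 rows of at least 100 mean normalised counts. The targeted gene was described by its counts in each strain. *lin-22* (Y54G2A.1) had 270.0, 107 and 198 normalised counts in *icb38*, 167, 158 and 101 in *ot269* and 356, 336 and 293 in *ot267*, against 342, 251 and 267 in JR667. Only the *ot269* libraries lay wholly below those of JR667. The log2 fold change was -1.01 in *ot269* and -0.57 in *icb38* (adjusted p = 0.0207 and 0.207 by edgeR). Against *ot267* it was -1.21 and -0.77 (adjusted p = 0.0164 and 0.0834 by edgeR), without overlap. From these same libraries the paper reported less *lin-22* in the mutants with upstream changes. By in situ hybridisation it found no *lin-22* in the seam of *icb38* and stronger signal in its intestine. Seam signal was lower in *ot269* and higher in *ot267*. A stop codon or a change upstream of the gene leaves the counted exons in place, so no strain is marked by missing *lin-22* counts. In RNA of whole larvae, fewer cells of a type and less RNA per cell cannot be told apart.

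Set against JR667, the heterochronic rows were mostly higher in the upstream mutants, and 1 of them passed the threshold in the coding mutant. In *icb38*, 12 of the 18 rows passed the threshold (16.2% of all rows tested did), 10 higher (7.66%) and 2 lower (8.55%). They belonged to 5 of the 8 genes: *lin-14*, *hbl-1*, *lin-41* and *daf-12* were higher and *lin-29* lower. In *ot269*, 13 rows of 6 genes passed (26.3%), all 13 of them higher (12.9%): *lin-14*, *hbl-1*, *lin-41*, *daf-12*, *lin-46* and *lin-42*. In *ot267* only 1 row passed (8.7%), which was the *lin-14* row T25C12.1b, and it was higher (4.1%). The libraries of mutant and JR667 did not overlap, with the mutant higher, in 11 rows in *icb38* (13.2% of all rows), 12 in *ot269* (19.9%) and 3 in *ot267* (11.5%). With 1 row per gene, the most counted one, 5 of the 8 genes passed in *icb38* (16.4% of all), 6 in *ot269* (26.9%) and 0 in *ot267* (8.91%), and the median log2 fold change of the 8 genes was 0.48 in *icb38*, 0.70 in *ot269* and 0.22 in *ot267*, where the medians over all 16236 rows so taken were -0.01, 0.01 and 0.01. Across the 4 strains, 17 of the 18 rows differed (34.9% of all rows did), *lin-28* F02E9.2a being the exception. Without JR667 replicate 1, 24 of the 26 calls against JR667 held, the *lin-42* calls being lost. Without JR667 replicate 2, 3 genes in place of 1 were called in *ot267*, namely *lin-14*, *hbl-1* and *daf-12*. Over the 6 fits that each left out a library, this number ran from 1 to 3. The 3 contrasts share the JR667 libraries and are given side by side for that reason.

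**Figure D1:**
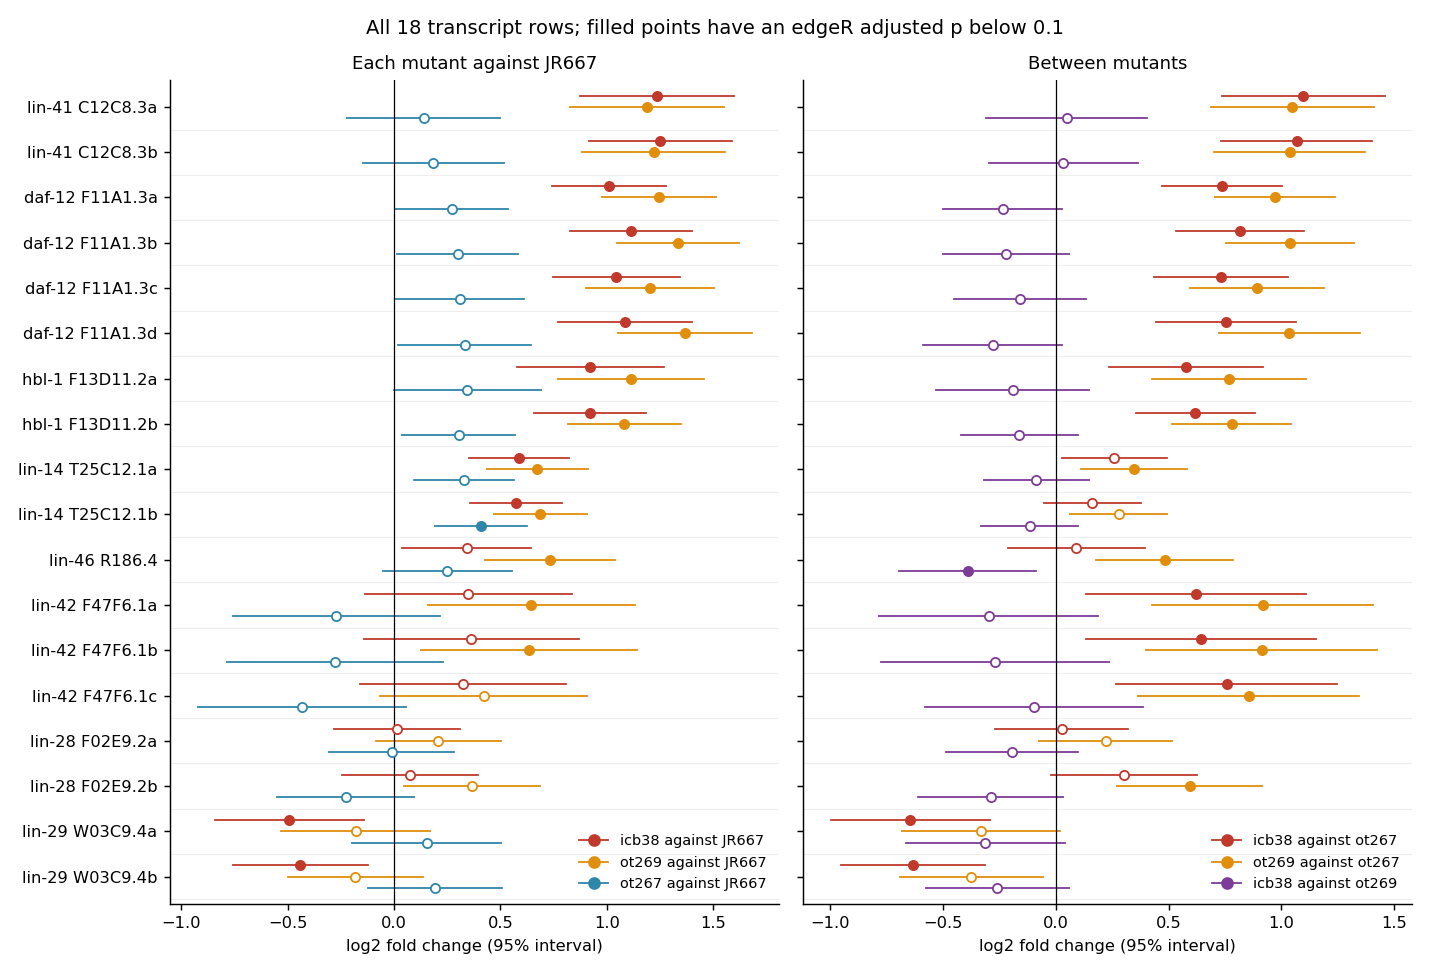
Log2 fold change of each of the 18 transcript rows (points) with its 95% interval (lines). The left panel sets each mutant against JR667 and the right panel sets the mutants against each other. Filled points have an edgeR adjusted p below 0.1. The rows of lin-41, daf-12 and hbl-1 lie between 0.92 and 1.37 in both upstream mutants and between 0.14 and 0.35, unfilled, in ot267.

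*lin-41*, which encodes a TRIM-NHL RNA-binding protein and is a classic target of let-7, showed the largest rise of the 8 genes in *icb38*. Its most counted row, C12C8.3b, had 9504, 8237 and 8248 normalised counts in *icb38*, 9232, 7800.5 and 8382 in *ot269* and 4755, 3579.8 and 4063 in *ot267*, against 3636, 4519.8 and 2758 in JR667. Every library of the upstream mutants was above every library of the other strains, while the *ot267* and JR667 libraries overlapped. The log2 fold change against JR667 was 1.25 in *icb38* (SE 0.157, adjusted p = 0.000355 by edgeR) and 1.22 in *ot269* (SE 0.157, adjusted p = 0.000105 by edgeR). The value of 0.18 in *ot267* did not pass the threshold (adjusted p = 0.541 by edgeR, 95% interval -0.15 to 0.52). The row C12C8.3a had 8881, 7633 and 7833 normalised counts in *icb38*, 8460.4, 7492 and 7600.0 in *ot269* and 4407, 3057 and 3922 in *ot267*, against 3534, 4293 and 2514 in JR667, and gave 1.24, 1.19 and 0.14 (adjusted p = 0.00059, 0.00026 and 0.683 by edgeR). Within JR667 C12C8.3b spanned 1.64-fold between replicates 3 and 2. Both calls of C12C8.3b in the upstream mutants held without each of the 6 libraries in turn, with values of 1.09 to 1.44 in *icb38* and 1.05 to 1.40 in *ot269*.

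*daf-12*, the nuclear receptor for dafachronic acids, had the smallest adjusted p-value of the 8 genes in each upstream mutant. The row F11A1.3a had 3321, 3248 and 3103 normalised counts in *icb38*, 4171, 3508 and 3711 in *ot269* and 2085, 1743 and 1975 in *ot267*, against 1463, 1934 and 1409 in JR667. Levels in both upstream mutants were clear of the other strains, and 2 of the *ot267* libraries were above all 3 of JR667. The log2 fold change was 1.01 in *icb38* (SE 0.125, adjusted p = 0.000322 by edgeR) and 1.24 in *ot269* (SE 0.125, adjusted p = 1.25e-05 by edgeR). In *ot267* it was 0.27 (adjusted p = 0.236 by edgeR). Without JR667 replicate 2, whose 1934 normalised counts were the highest of its strain, that last value was 0.43 and passed the threshold (adjusted p = 0.049 by edgeR). Leaving out the highest JR667 library raises such a difference by itself. The row F11A1.3c, the least counted of the 4 rows of *daf-12*, had 673, 716 and 762 normalised counts in *icb38*, 914, 691 and 798 in *ot269* and 410.1, 429.8 and 454 in *ot267*, against 332, 406 and 305 in JR667. Here all 3 *ot267* libraries were above JR667, by 0.31 on the log2 scale, which did not pass the threshold (adjusted p = 0.232 by edgeR). F11A1.3b and F11A1.3d were higher by 1.11 and 1.09 in *icb38* (adjusted p = 0.000272 and 0.000524 by edgeR) and by 1.33 and 1.37 in *ot269* (adjusted p = 1.21e-05 and 2.35e-05 by edgeR).

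*hbl-1*, the hunchback homologue and a zinc finger factor that let-7 relatives repress, followed the same order of strains. The row F13D11.2a had 1303, 1119.7 and 1056 normalised counts in *icb38*, 1328, 1394 and 1249.5 in *ot269* and 723, 764 and 844 in *ot267*, against 461, 792 and 583 in JR667. The 6 upstream mutant libraries were above the other 6, and JR667 replicate 2 lay among the *ot267* libraries. *hbl-1* rose by 0.92 on the log2 scale in *icb38* (SE 0.161, adjusted p = 0.00258 by edgeR) and by 1.11 in *ot269* (SE 0.162, adjusted p = 0.000302 by edgeR). In *ot267* the value was 0.35 (adjusted p = 0.247 by edgeR). Of the 6 fits that each left out a library, it passed in 1. That was the fit without JR667 replicate 2, the highest JR667 library (0.57, adjusted p = 0.0369 by edgeR). Over the 6 fits the value ran from 0.18 to 0.57, with edgeR adjusted p-values up to 0.563. F13D11.2b varied less between libraries, with 1054, 991 and 1042 normalised counts in *icb38*, 1131, 1171 and 1152 in *ot269* and 637, 704 and 671 in *ot267*, against 446, 642 and 543 in JR667. Its log2 fold changes were 0.92, 1.08 and 0.30 (adjusted p = 0.000523, 4.13e-05 and 0.182 by edgeR).

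*lin-14*, a DNA-binding protein of the first larval stage and the founding target of lin-4, was the only member called in all 3 mutants, by at least 1 of its rows. The paper had already listed *lin-14* as significantly changed in *icb38* and *ot269*, from the same libraries. T25C12.1b had 2643, 2441 and 2539 normalised counts in *icb38*, 2741, 2891 and 2632 in *ot269* and 2339, 2276 and 2201 in *ot267*, against 1468, 1829.8 and 1833 in JR667. All 9 mutant libraries were above all 3 of JR667, and the *ot267* libraries lay in between. The log2 fold change was 0.57 in *icb38*, 0.69 in *ot269* and 0.41 in *ot267*, with standard errors of 0.101, 0.102 and 0.101 and edgeR adjusted p-values of 0.00284, 0.000353 and 0.0288. The more counted row T25C12.1a gave 0.59, 0.67 and 0.33, and its value in *ot267* just missed the threshold (adjusted p = 0.105 by edgeR). It passed without JR667 replicate 2, with DESeq2, with TMM factors, with library totals only, with at least 10 counts in every library and with the rows of the gene summed (adjusted p of 0.0497 to 0.0948, edgeR or DESeq2). Fitted on the 6 libraries of *ot267* and JR667 alone, T25C12.1b also lost its call there (0.40, adjusted p = 0.142 by edgeR).

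**Figure D2:**
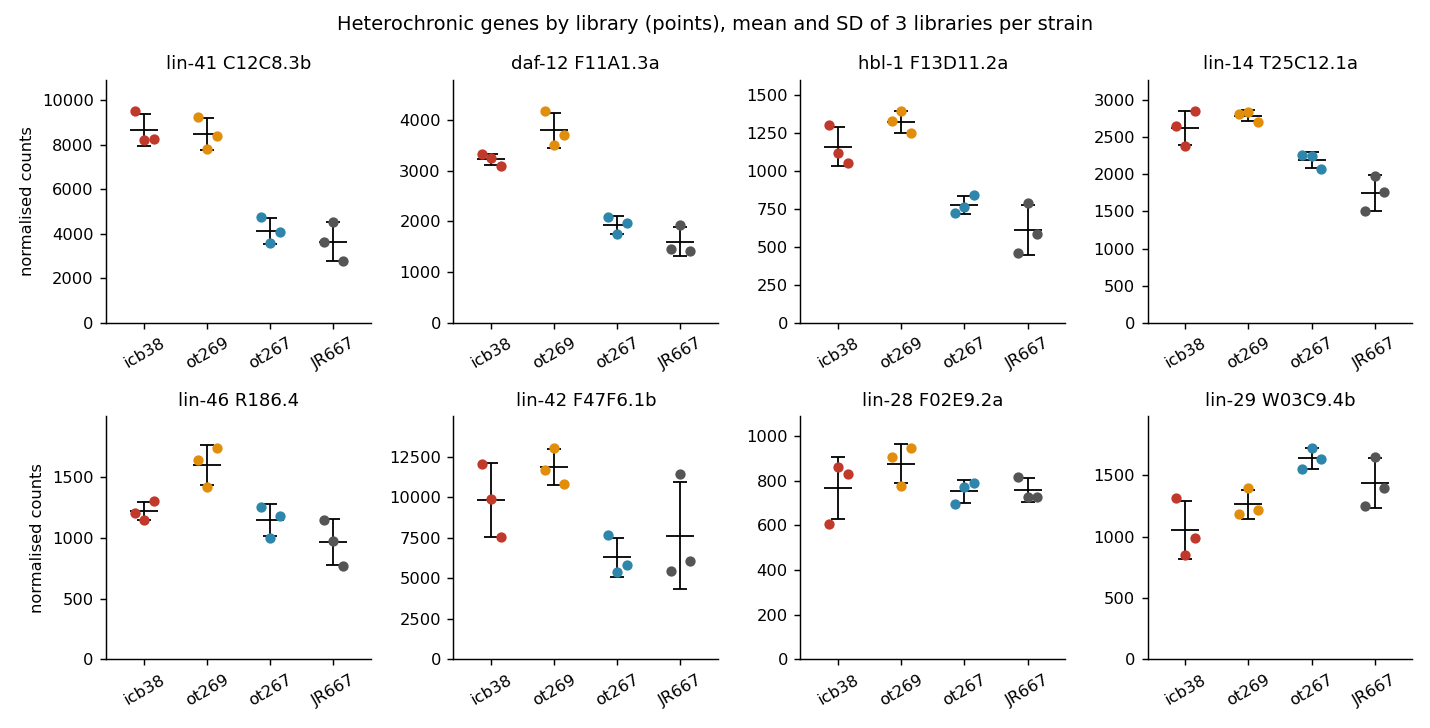
Normalised counts of the most counted row of each gene in every library (points), with the mean and SD of the 3 libraries of each strain (horizontal and vertical black lines). All axes start at 0. For lin-41, daf-12 and hbl-1 the points of icb38 and ot269 are all above those of ot267 and JR667, whereas the strains overlap for lin-28.

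*lin-46* and *lin-28* belong to the module that times the L2 stage. LIN-28 is an RNA-binding protein that blocks let-7 maturation, and LIN-46, a gephyrin-related protein, acts downstream of LIN-28 against HBL-1. *lin-46* had 1208, 1151 and 1300.0 normalised counts in *icb38*, 1643, 1419 and 1738 in *ot269* and 1257, 1002 and 1177 in *ot267*, against 1145, 976 and 766 in JR667. It rose in *ot269*, by 0.73 (SE 0.142, adjusted p = 0.00266 by edgeR). The *icb38* libraries also lay above those of JR667, by 0.34, which did not pass the threshold (adjusted p = 0.145 by edgeR) unless JR667 replicate 1 was left out (0.48, adjusted p = 0.0373 by edgeR). In *ot267* the value was 0.25 (adjusted p = 0.348 by edgeR).

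In the fit of all libraries *lin-28* passed the threshold against JR667 in none of the mutants, by either row. The row F02E9.2a had 607, 861 and 831 normalised counts in *icb38*, 906, 777 and 946 in *ot269* and 694, 771 and 792 in *ot267*, against 819, 727 and 729 in JR667. The strains overlapped throughout, with log2 fold changes of 0.01 (95% interval -0.28 to 0.31), 0.21 (-0.09 to 0.50) and -0.01 (-0.31 to 0.28) in *icb38*, *ot269* and *ot267*. Those intervals do not reach the rise of *lin-41* or *daf-12* in the upstream mutants, and smaller changes in either direction fall within them. The less counted row F02E9.2b had 413, 525 and 469 normalised counts in *icb38*, 538, 518 and 663 in *ot269* and 394, 369 and 378 in *ot267*, against 526, 393 and 415 in JR667. In *ot269* it was 0.37 above JR667, just short of the threshold (adjusted p = 0.104 by edgeR), and it passed without JR667 replicate 1 (0.51, adjusted p = 0.0344 by edgeR), with DESeq2, with TMM factors and with library totals only (adjusted p = 0.0883 by DESeq2, and 0.098 and 0.0519 by edgeR). The *lin-28* span overlaps another protein-coding gene of the table, F02E9.1, in the WBcel235 gene table. Whether counting used strand is not given in the sources used here, so shared reads could not be separated. F02E9.1 passed the threshold in none of the mutants against JR667.

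*lin-29*, the zinc finger factor of the larval-to-adult switch whose messenger LIN-41 represses, was the only member called lower in a mutant against JR667. W03C9.4b had 1319.6, 854 and 993 normalised counts in *icb38*, 1181, 1396 and 1214 in *ot269* and 1555, 1722 and 1637 in *ot267*, against 1249, 1652 and 1400.5 in JR667. Replicate 1 of *icb38* lay within the JR667 range, and its replicates 2 and 3 lay below it. The log2 fold change in *icb38* was -0.44 (SE 0.149, adjusted p = 0.0734 by edgeR), and that of W03C9.4a was -0.49 (adjusted p = 0.0704 by edgeR). These calls were fragile. Both rows lost them without *icb38* replicate 2 or 3 and without JR667 replicate 2 or 3. Over these 4 fits W03C9.4b was at -0.31, -0.40, -0.33 and -0.46, with edgeR adjusted p-values of 0.237, 0.196, 0.204 and 0.14. In *ot269* and *ot267* the values of W03C9.4b were -0.18 and 0.19 (adjusted p = 0.43 and 0.499 by edgeR). The span of *lin-29* overlaps *hmg-12* (Y17G7A.1), a gene of the HMG family, in the WBcel235 gene table. *hmg-12* had log2 fold changes of -0.49 in *icb38* and -0.41 in *ot269* (adjusted p = 0.0678 and 0.0899 by edgeR), calls that held in 3 and 1 of the 6 fits without a library, and whether the 2 genes share reads was not tested.

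*lin-42* is the worm homologue of the circadian gene Period, and its messenger is known to cycle with the moults. F47F6.1b had 12055, 9881 and 7542 normalised counts in *icb38*, 11687, 13025 and 10809 in *ot269* and 7643, 5406 and 5835 in *ot267*, against 5442, 11401 and 6067 in JR667. JR667 replicate 2 stood far above the other JR667 libraries and within the upstream mutants' range, and *lin-42* had the widest spread within JR667 of the 8 genes, 2.10-fold for this row. In *ot269*, F47F6.1a and F47F6.1b were higher by 0.64 and 0.63 (SEs 0.228 and 0.238, adjusted p = 0.0629 and 0.0786 by edgeR), while F47F6.1c was at 0.42 (adjusted p = 0.217 by edgeR). Of the 6 fits that each left out a library, only that without JR667 replicate 2 kept the *lin-42* calls in *ot269*, and the F47F6.1b value ranged from 0.44 to 1.04 over them. In *icb38* the F47F6.1b value was 0.36 (adjusted p = 0.366 by edgeR), and without JR667 replicate 2 it was 0.77 and passed (adjusted p = 0.0192 by edgeR). In *ot267* it was -0.28 (adjusted p = 0.545 by edgeR), and without JR667 replicate 2 it turned to 0.13 (adjusted p = 0.743 by edgeR).

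Genes of the moulting cycle were read beside the heterochronic ones because both follow developmental time. Of 8 moulting genes, 1 was higher and 1 lower in *icb38*, 4 higher and 1 lower in *ot269*, and 0 higher and 1 lower in *ot267* (of all genes, 16.4%, 26.9% and 8.91% passed in these mutants), with medians of 0.25, 0.48 and -0.05 on the log2 scale against -0.01, 0.01 and 0.01 over all genes. The gene lower in every mutant was *bli-1* (C09G5.6), a cuticle collagen of late larvae and adults. It had 175, 114 and 112 normalised counts in *icb38*, 141, 201 and 150.1 in *ot269* and 242, 985 and 181 in *ot267*, against 1486, 5407 and 10298 in JR667. The JR667 libraries themselves spanned almost an order of magnitude, and all 9 mutant libraries were below them. The log2 fold changes were -5.41, -5.12 and -3.60 (adjusted p = 0.000462, 0.000164 and 0.00415 by edgeR) in *icb38*, *ot269* and *ot267*. The gene higher in *icb38* was the hedgehog-related *qua-1* (T05C12.10), at 0.64 (adjusted p = 0.0931 by edgeR), which held in 2 of the 6 fits without a library (0.42 to 0.97). In *ot269*, *mlt-10* (C09E8.3), needed for moulting, was higher by 1.47 (adjusted p = 0.000427 by edgeR), *qua-1* by 0.95 (adjusted p = 0.0111 by edgeR) and the protease gene *nas-37* (C17G1.6a) by 0.84 (adjusted p = 0.00173 by edgeR). Also called, and named after its value was seen, was *ptr-4* (C45B2.7), a patched-related gene, at 0.47 (adjusted p = 0.0174 by edgeR). JR667 replicate 2 was the highest JR667 library for 14 of the 18 heterochronic rows, of which those of a gene share reads. The share of all rows with that library highest was not counted. Of the moulting genes, *mlt-10*, *qua-1* and *nas-37* were also highest in JR667 replicate 2, whereas *bli-1* was highest in JR667 replicate 3. The remaining moulting genes are not given by library here, so a pattern shared with the heterochronic rows was not tested. In its seam cell lineages of *icb38*, the paper found that the timing of divisions was not generally affected. All larvae were collected at the same hour, and the part that developmental rate plays in the levels above was not tested.

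**Figure D3:**
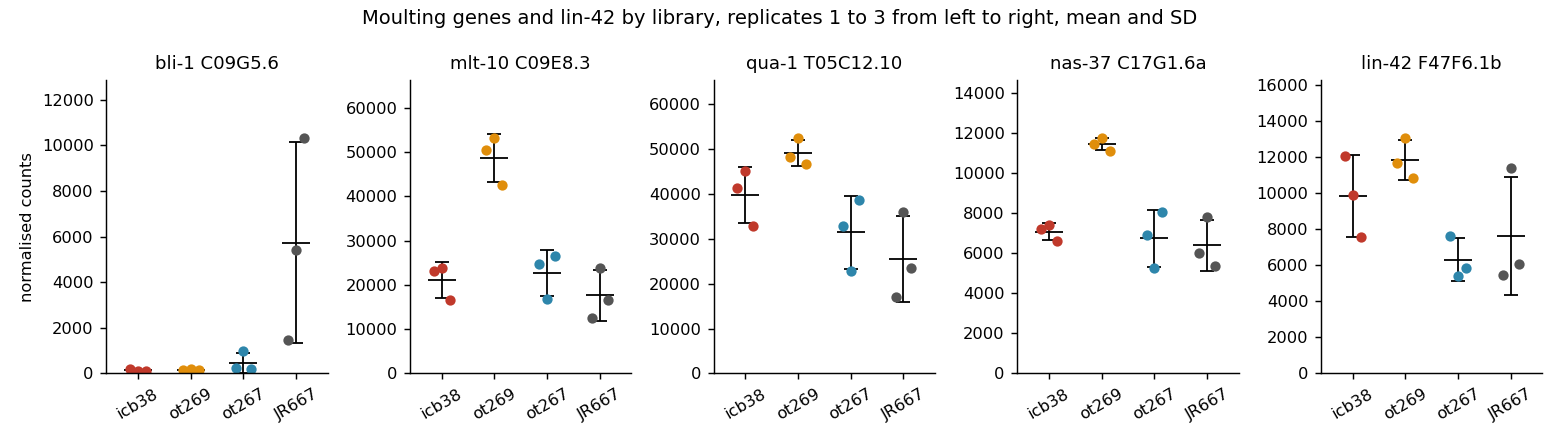
Normalised counts of 4 moulting genes and of lin-42 in every library (points, replicates 1 to 3 from left to right within a strain), with the mean and SD of each strain (black lines); axes start at 0. bli-1 reaches 10298 in JR667 and at most 985 in the mutant libraries, while mlt-10 and nas-37 are highest in ot269.

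Set against the coding mutant in place of JR667, at least 1 row passed the threshold for 5 of the 8 genes in *icb38* and for 7 in *ot269*. With 1 row per gene, 4 genes were higher and 1 lower in *icb38*, and 6 were higher and 0 lower in *ot269*. Of all 16236 rows so taken, 1253 were higher and 1803 lower in *icb38*, and 968 were higher and 750 lower in *ot269*. Between *icb38* and *ot267*, 13 of the 18 rows passed the threshold (18.1% of all rows did), 11 higher (7.91%) and 2 lower (10.2%). Between *ot269* and *ot267*, which share the transgene *vtIs1*, 14 rows passed (9.93%), all higher (5.63%). *lin-41* C12C8.3b was higher by 1.07 in *icb38* and 1.04 in *ot269* (adjusted p = 0.000558 and 0.000756 by edgeR). *daf-12* F11A1.3a was higher by 0.74 and 0.97 (adjusted p = 0.00146 and 0.000192 by edgeR), and *hbl-1* F13D11.2a by 0.58 and 0.77 (adjusted p = 0.0301 and 0.00887 by edgeR). The *lin-41* and *daf-12* calls held in all 6 fits without a library, as did that of *hbl-1* in *ot269*, while the F13D11.2a call in *icb38* was lost without *icb38* replicate 1 (0.49, adjusted p = 0.101 by edgeR). In the contrast of *icb38* with *ot267*, allele and transgene cannot be told apart.

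For the other genes that direct comparison gave a more divided result. *lin-42* F47F6.1b was above *ot267* by 0.64 in *icb38* and 0.91 in *ot269* (adjusted p = 0.0956 and 0.0331 by edgeR), of which the first kept its call in 2 and the second in 3 of 6 fits that left out a library, over values of 0.47 to 0.81 and 0.81 to 1.07. The least counted row, F47F6.1c, had 2281, 1663 and 1326 normalised counts in *icb38*, 1904, 2065 and 1666 in *ot269* and 1206, 905 and 1007 in *ot267*. It was higher by 0.76 in *icb38* and 0.85 in *ot269* (adjusted p = 0.0442 and 0.0369 by edgeR), calls that held in 3 and 2 of the 6 fits without a library, over values of 0.52 to 0.93 and 0.76 to 0.97. *lin-29* W03C9.4b was lower in *icb38* than in *ot267*, at -0.63 (SE 0.149, adjusted p = 0.0126 by edgeR) with no overlap, and kept its call in all 6 such fits. In *ot269* its difference of -0.37 from *ot267* did not pass (adjusted p = 0.169 by edgeR). *lin-28* F02E9.2b was higher in *ot269* than in *ot267* by 0.59 (SE 0.151, adjusted p = 0.0286 by edgeR), lost only without *ot269* replicate 3 (0.47, adjusted p = 0.15 by edgeR). *lin-46* and *lin-14* T25C12.1a were higher in *ot269* by 0.48 and 0.35 (adjusted p = 0.0562 and 0.0779 by edgeR). The *lin-46* call held in 2 of the 6 fits without a library, at 0.39 to 0.56, and the *lin-14* call in 0 of them, at 0.30 to 0.37.

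Between the upstream mutants themselves, only *lin-46* passed the threshold, 1 of 18 rows where 18.3% of all rows passed. It was lower (9.75% of all rows were) in *icb38* than in *ot269*, at -0.39 (SE 0.141, adjusted p = 0.0864 by edgeR), a call kept only without *ot269* replicate 2 among the 6 fits that each left out a library (-0.47 to -0.33). For *lin-41* C12C8.3b the difference was 0.03 (95% interval -0.30 to 0.36) and for *daf-12* F11A1.3a -0.24 (-0.50 to 0.03). All 3 *daf-12* F11A1.3a libraries of *icb38* were below the 3 of *ot269*, a difference that did not pass the threshold (adjusted p = 0.244 by edgeR). By their means, 9 of the 18 rows fell in the order *ot269*, *icb38*, *ot267*, JR667 from high to low, the 2 *lin-41* rows had *icb38* first, the 5 rows of *lin-28* and *lin-42* had JR667 above *ot267*, and the 2 *lin-29* rows ran *ot267*, JR667, *ot269*, *icb38*. The share of all rows in each of these orders was not counted, and rows of a gene share reads, so the orders only describe these rows. The upstream mutants differed past the threshold only for *lin-46*, and *ot267* and JR667 only for *lin-14* T25C12.1b.

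Of the 8 genes, 7 had more than 1 row, which allowed the isoforms to be set against each other. Rows of a gene share reads, so they are not independent and the counts cannot assign a shared read to an isoform. The rows of *daf-12* moved together. Over its 4 rows the log2 fold change against JR667 ran from 1.01 to 1.11 in *icb38* and from 1.20 to 1.37 in *ot269*. In *ot267* it ran from 0.27 to 0.33. Rows of *lin-28* and *lin-42* were less alike. F02E9.2a and F02E9.2b were at 0.21 and 0.37 in *ot269* and at -0.01 and -0.23 in *ot267*. F47F6.1a, F47F6.1b and F47F6.1c were at 0.64, 0.63 and 0.42 in *ot269*. The diffSpliceDGE test of edgeR called 0 of the 17 rows in each contrast, and 0 had an unadjusted p under 0.05. Over the whole table it called 0 of 5827 rows, with only 8, 17 and 11 of them under an unadjusted 0.05 in *icb38*, *ot269* and *ot267*, so few that the test could hardly have called a row and does not bear on whether isoform shares were stable. A second test, limma on the log2 ratio of each row to the mean of the other rows of its gene within a library, also called 0 of the 17 rows in each contrast, with 1, 2 and 1 of them under an unadjusted 0.05. Over the whole table it called 3, 0 and 0 rows, with 346, 499 and 351 under an unadjusted 0.05.

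The largest shift of an isoform against JR667 with a small unadjusted p concerned *lin-42*. F47F6.1c held 17.8 ± 1.06% of the counts of F47F6.1b in *icb38*, 15.9 ± 0.439% in *ot269* and 16.6 ± 0.744% in *ot267*, against 18.6 ± 0.97% in JR667 (SD, n = 3 each). Its log2 ratio to the other rows differed from JR667 by -0.23 in *ot269* and by -0.16 in *ot267*, which did not pass after adjustment (limma adjusted p = 0.346 and 0.741). For *lin-28*, F02E9.2b stood at 61.8 ± 5.85% of F02E9.2a in *icb38*, 65.4 ± 5.44% in *ot269* and 50.7 ± 5.15% in *ot267*, against 58.4 ± 5.26% in JR667. Between *ot269* and *ot267* the log2 ratio differed by 0.37, again not past adjustment (limma adjusted p = 0.36). *daf-12* F11A1.3b was at 81.7 ± 5.09%, 80.7 ± 0.791% and 77.2 ± 2.27% of F11A1.3a in *icb38*, *ot269* and *ot267*, against 75.9 ± 1.39% in JR667. The least counted *daf-12* row, F11A1.3c, was between 21.0 and 22.4% of F11A1.3a by the mean of every strain.

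**Figure D4:**
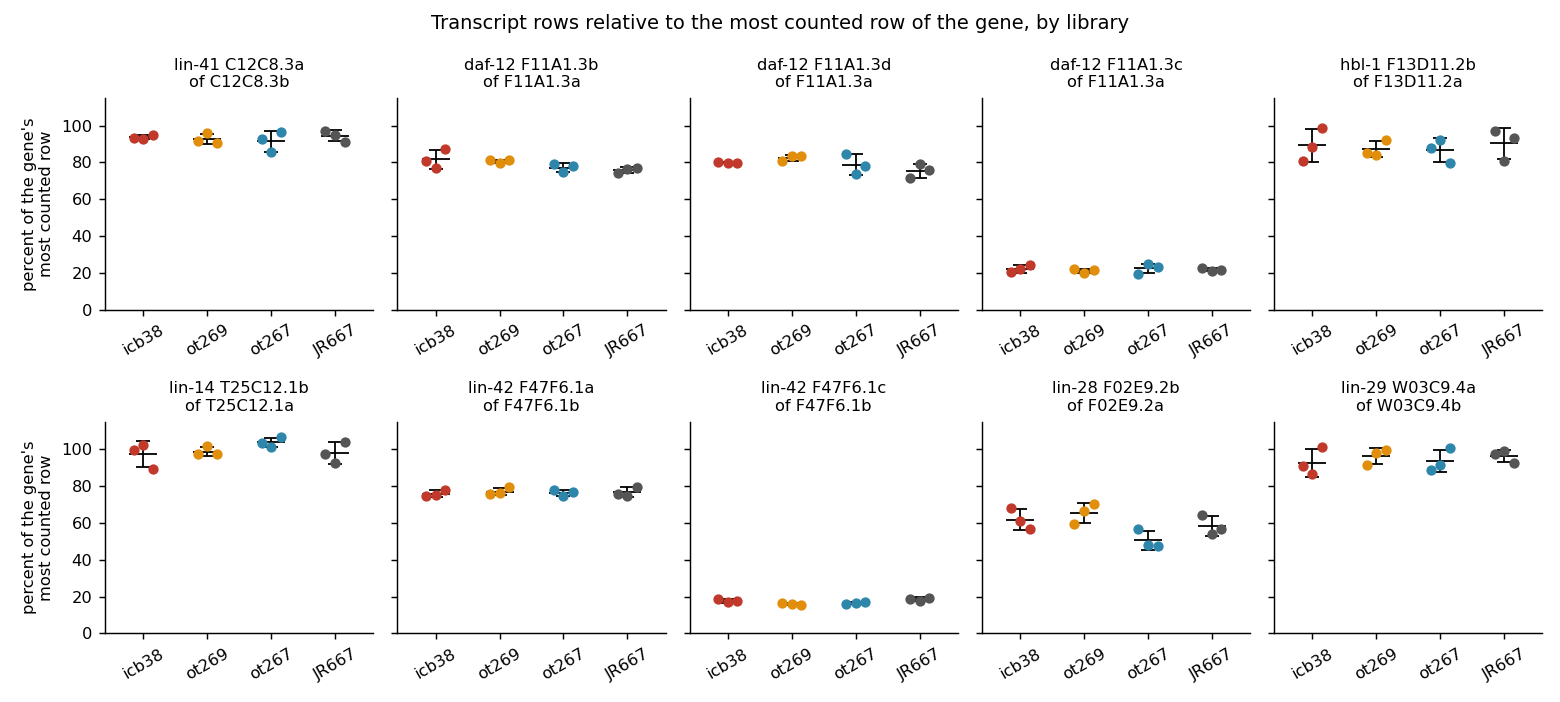
Counts of each further transcript row as a percentage of the most counted row of its gene, in every library (points), with the mean and SD of the 3 libraries of each strain (black lines). The axis starts at 0. Within each panel the 4 strains lie close together, the widest gap between strain means being that of lin-28 F02E9.2b, at 65.4% in ot269 and 50.7% in ot267.

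Profiles over the 12 libraries were compared next, as log2(normalised count + 1) centred on its mean, among 15478 rows with at least 100 mean normalised counts. This is a description of libraries that share strains and size factors, and no test goes with it. The 3 rows of other genes nearest to *lin-41* C12C8.3b, by root mean square difference, were all *daf-12* rows: F11A1.3b at 0.142, F11A1.3a at 0.155 and F11A1.3d at 0.16 log2 units. The 3 nearest to *daf-12* F11A1.3a were *hbl-1* F13D11.2b at 0.149, T22F7.1 at 0.152 and *lin-41* C12C8.3b at 0.155. T22F7.1 had 1169.5, 1115 and 1244 normalised counts in *icb38*, 1632, 1452 and 1614 in *ot269* and 881, 874 and 842 in *ot267*, against 656, 835 and 672 in JR667. It was the only one of these nearest rows outside the 8 genes. Ranked by distance from *lin-41*, *hbl-1* F13D11.2a came at place 15, *lin-42* F47F6.1b at 163, *lin-14* T25C12.1a at 252, *lin-46* at 412, *lin-28* F02E9.2a at 4911 and *lin-29* W03C9.4b at 13967.

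**Figure D5:**
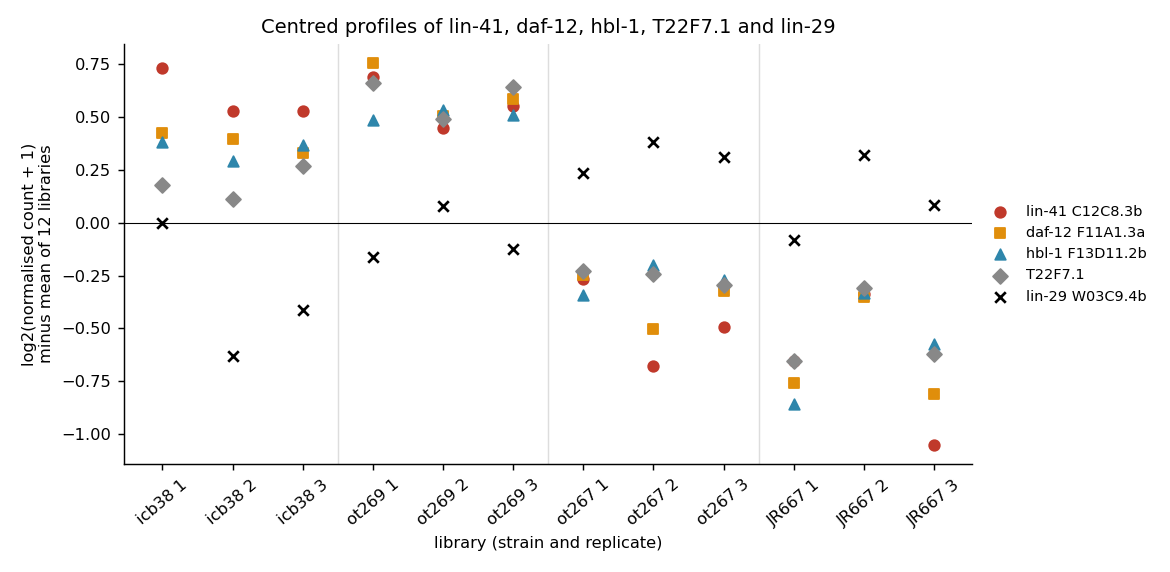
Log2(normalised count + 1) minus its mean over the 12 libraries for 5 transcript rows, by library; grey lines separate the strains. The points of lin-41, daf-12, hbl-1 and T22F7.1 lie above 0 in every icb38 and ot269 library and below 0 in every ot267 and JR667 library, whereas lin-29 (crosses) is above 0 in every ot267 library.

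The genes around the 8 members were read from lists of the pathway. The microRNAs lin-4, let-7, mir-48, mir-84 and mir-241 have no row in the count table and were not analysed here. Of 12 genes of the microRNA machinery, 0 passed in *icb38* and *ot267* (16.4% and 8.91% of all genes did), and 1 was higher in *ot269* (26.9% passed in either direction). It was *alg-2* (T07D3.7a), which encodes an Argonaute that carries microRNAs, with 3512 ± 87.6 normalised counts in *ot269* and 1931 ± 528 in JR667 (SD, n = 3 each), a log2 fold change of 0.86 (adjusted p = 0.00176 by edgeR). The medians of this list were 0.15, 0.14 and 0.08 in *icb38*, *ot269* and *ot267*.

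Among 13 other heterochronic regulators, 3, 4 and 1 were higher and 0 lower in *icb38*, *ot269* and *ot267*, with medians of 0.27, 0.14 and 0.04. Of all genes, 16.4%, 26.9% and 8.91% passed in either direction in these mutants. Of the 16236 rows taken as 1 per gene, 1147, 2104 and 682 were higher. The list was not tested as a set. *nhr-25* (F11C1.6a), a nuclear receptor of the epidermis and of moulting, was higher in all 3, by 0.46, 0.93 and 0.63 (adjusted p = 0.0222, 9.43e-05 and 0.00673 by edgeR). The paper had listed *nhr-25* too as significantly changed in *icb38* and *ot269*. *dre-1* (K04A8.6), the F-box protein that targets BLMP-1 for degradation, was higher by 0.38 in *icb38* and 0.57 in *ot269* (adjusted p = 0.0279 and 0.00154 by edgeR). Its target *blmp-1* (F25D7.3), a zinc finger factor, was higher by 0.35 in *ot269* (adjusted p = 0.0807 by edgeR), and the nuclear receptor gene *nhr-85* (W05B5.3a) by 0.38 in *icb38* (adjusted p = 0.0948 by edgeR). Also called, and named after its value was seen, was the transcription factor gene *myrf-1* (F59B10.1), at 0.32 in *ot269* (adjusted p = 0.0954 by edgeR). The *blmp-1* call held in 1 and the *nhr-85* call in 2 of the 6 fits that left out a library, both including the one without JR667 replicate 2, with values of 0.19 to 0.52 and 0.24 to 0.50. The *dre-1* call in *icb38* was lost without JR667 replicate 3 (0.32, adjusted p = 0.122 by edgeR).

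Of 9 genes around the DAF-12 hormone, 1 was higher and 2 lower in *icb38*, 3 higher and 2 lower in *ot269*, and 0 higher and 2 lower in *ot267* (of all genes, 16.4%, 26.9% and 8.91% passed in these mutants). The medians were -0.12, 0.08 and -0.09. *emb-8* (K10D2.6), an NADPH-cytochrome P450 reductase that supplies electrons to P450 enzymes, was lower in all 3 mutants, at -0.51, -0.84 and -0.61 (adjusted p = 0.0218, 0.000499 and 0.0127 by edgeR). *daf-9* (T13C5.1a), the P450 enzyme that makes the DAF-12 ligands, was higher by 0.61 in *ot269* (adjusted p = 0.00468 by edgeR). *din-1* (F07A11.6d), the corepressor of DAF-12, was higher by 0.40 in *icb38* and 0.65 in *ot269* (adjusted p = 0.0569 and 0.00266 by edgeR). *ncr-2* (F09G8.4), a homologue of the sterol transport protein NPC1, was lower there, at -1.34 and -2.07, with 46.2 ± 13.6 and 27.9 ± 9.37 normalised counts against 118 ± 53.4 in JR667 (SD, n = 3 each, adjusted p = 0.0427 and 0.00303 by edgeR). Named after their values were seen, *dhs-16* (C10F3.2), a dehydrogenase of the hormone pathway, was at 0.53 in *ot269* and *strm-1* (H14E04.1), a sterol methyltransferase, at -0.52 in *ot267* (adjusted p = 0.0485 and 0.0794 by edgeR). In *icb38* the *din-1* and *ncr-2* calls each held in 3 of the 6 fits that left out a library, over 0.25 to 0.53 and -1.59 to -0.92, and both were lost without *icb38* replicate 1 and without JR667 replicate 3.

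Downstream of LIN-41 and LIN-29 stand genes of the adult epidermis and of male structures. Of 5 such genes, 3 were lower in *icb38*, 1 in *ot269* and 0 in *ot267*, none was higher, and the medians were -1.72, -0.65 and -0.19. Of all genes, 16.4%, 26.9% and 8.91% passed in either direction in these mutants. *aff-1* (C44B7.3), a cell fusion protein of the seam, was lower, at -0.78 in *icb38* and -1.30 in *ot269* (adjusted p = 0.0657 and 0.0032 by edgeR). *mab-3* (Y53C12B.5a), a DM domain factor whose messenger LIN-41 represses, had 76, 22.6 and 58.4 normalised counts in *icb38*, 208, 241 and 199 in *ot269* and 112, 183 and 198 in *ot267*, against 130.2, 221 and 333 in JR667. Its log2 fold change was -2.10 in *icb38*, -0.077 in *ot269* and -0.47 in *ot267* (adjusted p = 0.00369, 0.911 and 0.496 by edgeR), and only *icb38* passed. The part of *lin-41* in these *mab-3* levels was not tested. The cuticle collagen gene *col-7* (C15A11.5) was scarce everywhere, with 1.95, 4.76 and 0 normalised counts in *icb38* and 16.6, 20.1 and 18.4 in JR667, and its fitted fold change of -3.03 (adjusted p = 0.0387 by edgeR) depends on the prior count. In *icb38*, the *aff-1* call held in 2 and the *col-7* call in 3 of the 6 fits that left out a library, over -0.98 to -0.48 and -4.08 to -2.44, and both were lost without JR667 replicate 3. Within JR667, *aff-1* ran from 527 to 1016 normalised counts, and JR667 replicate 3 was the highest for *aff-1*, *mab-3* and *bli-1*.

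Markers of tissues were read to see what else moved with the strains, and none of the listed markers that were tested was at 0 in a strain. The counts below stand beside 16.4%, 26.9% and 8.91% of all genes that passed in *icb38*, *ot269* and *ot267*. Of 7 epidermal and seam markers, 0 passed in *icb38*, 3 were higher in *ot269* (*elt-1*, *nhr-73* and *bro-1*) and 1 was lower in *ot267* (*elt-3*). Their summed level was 29569 to 32536 normalised counts in *icb38*, 34623 to 37553 in *ot269* and 24223 to 26488 in *ot267*, against 24653 to 35367 in JR667, so that the JR667 range contained the whole of the *icb38* range. Such sums mainly follow the most counted markers. In JR667, *dpy-7* alone ran from 13129 to 22690 normalised counts, and the muscle marker *unc-54* from 371610 to 668183. Of 6 neuronal markers, 3 were higher in *icb38* (*unc-13*, *egl-3* and *snt-1*) and 1 in *ot269* (*unc-13*), at sums of 24064 to 25902 and 20084 to 21790 normalised counts, against 18099 to 21639 in JR667. Of 5 germline markers, 3 were lower (*glh-1*, *pgl-1* and *htp-3*) and 1 higher (*mex-3*) in *icb38*, at 21276 to 30239 normalised counts against 27253 to 49028 in JR667. In *ot269*, 3 of 5 pharyngeal markers (*myo-1*, *myo-2* and *tnt-4*) and 2 of 5 body wall muscle markers (*pat-10* and *unc-27*) were lower, at sums of 61345 to 70952 and 705002 to 722153, against 92199 to 125243 and 779317 to 1098600.0 in JR667. In *icb38*, 1 of the muscle markers was higher (*myo-3*) and 1 lower (*unc-27*). Of the intestinal markers, 1 of 5 was lower in *ot269* (*act-5*), and of 3 sperm markers tested 1 was lower in *icb38* (*spe-42*). The part of these tissue shares in the heterochronic levels was not tested.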

How the data were processed

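Poly(A) RNA of whole L3 larvae was sequenced from stranded libraries. Per the labels and the study's methods, the authors aligned reads with Bowtie2, obtained a read count for each transcript row with bedtools and normalised with DESeq. Versions, genome build and strand setting are not given in the sources used here. The deposited count table holds whole reads per transcript row. The deposited normalised table is a signal that equals these counts, with 0 set to 1, divided by a DESeq size factor per library in all 23953 rows (checked within a relative tolerance of 1e-06), and it was used for that check only.

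Counts were fitted with edgeR 4.0.16 in R 4.3.3 (quasi-likelihood test, relative log expression factors, a minimum count of 10 in the filter by expression, all 12 libraries in 1 fit, Benjamini-Hochberg adjustment over 19696 rows of 16110 genes, threshold 0.1). Isoforms were tested with diffSpliceDGE and, chosen after seeing the data, limma 3.58.1 on log2 ratios of rows within a library. Alternatives were DESeq2 1.42.0, other scalings, filters, thresholds, sample sets and a replicate block. Figures were drawn with matplotlib 3.10.9. Scripts were tested on simulated data. No pair of replicate libraries was a duplicate.

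The 8 genes and all lists were chosen with earlier results of these data known. The text names every row of the 8 genes, up to 4 called genes per list by smallest adjusted p, the most counted row standing for each, and the 3 rows nearest in profile to *lin-41* and to *daf-12*. Gene names and overlaps came from a RefSeq gene table of WBcel235.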

Additional observations from a re-analysis of the deposited data

How the results depend on the processing

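Of the 26 calls of *lin-14*, *hbl-1*, *lin-41*, *daf-12*, *lin-46*, *lin-42* and *lin-29* rows against JR667, DESeq2, TMM factors, library totals and both other filters each kept 26. A fit on the 6 libraries compared kept 23 and lost 3. The 3 libraries per strain, whole-larva RNA and counts that cannot assign reads shared between isoforms limit what can be resolved. No sign was seen that replicate numbers pair the libraries. Deviations of same-numbered libraries correlated at -0.12 to 0.07 over 18 pairs, with 0 above 0.1, against -0.16 to 0.15 over 36 other pairs. Such correlations cannot exclude a shared culture or preparation. With a replicate block, 24 of the 26 calls were kept, both *lin-29* rows being lost in *icb38*, and 0 genes were called in *icb38* against *ot269*.

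The number of the 8 genes called moved as follows, and the cause was not tested except where fewer samples or rows entered. In *ot267* against JR667 it was 1, and 3 with library totals only, 0 on 6 libraries and 0 with 1 transcript per gene. In *icb38* against *ot269* it was 1, and 0 at an adjusted p of 0.05, 3 with library totals only and 2 on 6 libraries. Leaving out each replicate gave 4 to 6 genes in *icb38* and 5 to 6 in *ot269* against JR667, 1 to 3 in *ot267* against JR667 (3 without JR667 replicate 2), 4 to 5 in *icb38* and 4 to 6 in *ot269* against *ot267* (7 with all libraries), 0 to 1 in *icb38* against *ot269*, and 0 isoform rows throughout.

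With library totals only, small uncalled values changed sign: *lin-41* C12C8.3a and C12C8.3b in *icb38* against *ot269* (-0.079 and -0.095), and *lin-28* F02E9.2a in *ot267* against JR667 (0.065) and in *icb38* against *ot267* (-0.039). Leaving out a replicate also turned uncalled values. *lin-28* F02E9.2a ran from -0.080 to 0.16 in *icb38* and from -0.048 to 0.049 in *ot267* against JR667, and from -0.065 to 0.17 in *icb38* against *ot267*. *lin-28* F02E9.2b ran from -0.016 to 0.21 in *icb38* against JR667. *lin-41* C12C8.3a ran from -0.045 to 0.32 in *ot267* against JR667 and from -0.022 to 0.11 in *icb38* against *ot269*, where C12C8.3b ran from -0.040 to 0.10. *lin-42* F47F6.1a and F47F6.1b ran from -0.47 to 0.10 and from -0.47 to 0.13 in *ot267* against JR667, and F47F6.1c from -0.33 to 0.069 in *icb38* against *ot269*. Apart from these, over the alternatives that kept all replicates 1092 values for single rows stayed on their side of the threshold, while 23 passed and 20 failed it anew. Over the fits that left out a replicate, 718 stayed, 15 passed and 89 failed it anew, and 18 changed sign.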
